A study of Caenorhabditis elegans with 6 samples.

Results

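H3K9me3 was set directly against H3K27ac in the muscle of wild-type (WT) worms to describe how silent and active chromatin are laid out along the chromosomes and how far each extends without a break. The study profiled histone marks in L3 body wall muscle of *C. elegans* by ChIC-seq, a form of CUT&RUN in which micrococcal nuclease (MNase), tethered to the antibody through protein A, cuts the DNA beside the mark for sequencing. The 6 libraries at hand were H3K9me2, H3K9me3, H3K27ac and an antibody-free MNase control from N2 (Bristol), and H3K27ac and a control from *met-2(n4256) III*. The latter is a mutant in an H3K9 methyltransferase gene. The comparison used 2 of these 6 libraries, WT H3K9me3 and WT H3K27ac. Each mark had 1 library, made from a small number of sorted cells, so antibody and library cannot be told apart and no test was possible. The members were the 99471 nuclear windows of 1 kb with a read in any library, of 100293 windows in the table, and 10013 sums of 10 consecutive windows (10 kb). Muscle identity could not be examined through marker genes, since gene models matching the ce10 coordinates were not used here.

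Methylation of histone H3 on lysine 9 marks heterochromatin, where repeats and many tissue-specific genes are kept silent, and acetylation of lysine 27 marks active promoters and enhancers. *C. elegans* chromosomes are holocentric and have no single centromeric block of heterochromatin. Their autosomal arms are richer in repeats and in H3K9 methylation and lie near the nuclear periphery, whereas their centres hold more of the broadly expressed genes.

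Reads were scaled to a common library total, 8 was added and log2 was taken. The difference used throughout is H3K9me3 minus H3K27ac on this log2 scale, positive where H3K9me3 exceeds H3K27ac. A control taken from both sides would cancel, so none was subtracted. The H3K9me3 library held 28519008 reads and the H3K27ac library 13658228, with a median of 264 and 130 reads per 1 kb window and of 2769 and 1387 reads per 10 kb. At these medians the 95% counting interval of the difference reached from -0.35 to 0.27 in a 1 kb window and from -0.16 to 0.029 in a 10 kb window. These intervals cover counting error only. Windows above 0.5, a 1.41-fold excess, are called the H3K9me3 side, and windows below -0.5 the H3K27ac side.

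The difference had a median of -0.046 and an SD of 0.57 over 1 kb windows. The H3K9me3 side held 17104 of them (17.2%) and the H3K27ac side 15301 (15.4%). Which side was larger depended on the library, since *met-2* H3K27ac in place of the WT mark gave 13726 and 14107. The tails were unequal. The highest window reached 3.52 and the lowest -2.04, and a threshold of 1 left 5804 windows (5.83%) above it and 1163 (1.17%) below -1. Summing to 10 kb widened the imbalance, with 1378 windows (13.8%) on the H3K9me3 side and 444 (4.43%) on the H3K27ac side. Beyond 1 there were 480 sums (4.79%) on the H3K9me3 side and 0 (0%) on the H3K27ac side. The H3K9me3 side thus made up 75.6% of the 10 kb windows past the threshold. This share was 92.1% once the difference was centred on its median and 85.7% with the *met-2* H3K27ac library in place of the WT one.

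The sides differed more in H3K27ac than in H3K9me3. Median scaled H3K9me3 reads per 1 kb window were 175 on the H3K9me3 side, 161 between the thresholds and 131 on the H3K27ac side. The corresponding H3K27ac medians were 88.3, 167 and 218. Windows on the H3K9me3 side therefore carried 111% of the genome-wide median of H3K9me3 and 54.6% of that of H3K27ac. These levels defined the sides and are given as a description.

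The 4 libraries that the difference did not use were then read in the same windows. H3K27ac from *met-2* muscle followed the WT mark, with 65.4% of its genome-wide median on the H3K9me3 side and 118.9% on the H3K27ac side. H3K9me2, the dimethyl form, stood at 89.1% on the H3K9me3 side and 105% on the H3K27ac side. The MNase controls moved in the same direction as H3K27ac, at 80.6% and 114% for WT and 85.7% and 110% for *met-2*. The part of the controls in the result was not tested. H3K9me2 minus *met-2* H3K27ac, a pair with no library in common with the main difference, had a median of 0.26 on the H3K9me3 side, -0.21 between the thresholds and -0.36 on the H3K27ac side. This pair is not independent of the main difference. Its H3K27ac library followed WT H3K27ac closely, with a Spearman's rho of 0.89 over windows of 1 kb.

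The difference was higher in chromosome arms than in chromosome centres. Over the autosomes the median difference was 0.15 in arms and -0.23 in centres, 0.38 apart. The H3K9me3 side took 28.1% of arm windows and 4.22% of centre windows, and the H3K27ac side took 9.46% and 23.5%. All 5 autosomes showed arms above centres, by 0.27 on I, 0.41 on II, 0.31 on III, 0.29 on IV and 0.46 on V. H3K9me2 minus *met-2* H3K27ac was also higher in arms on 5 of 5 autosomes, by 0.21 overall. With the *met-2* H3K27ac library in place of the WT one, the distance between arms and centres was 0.25.

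**Figure D1:**
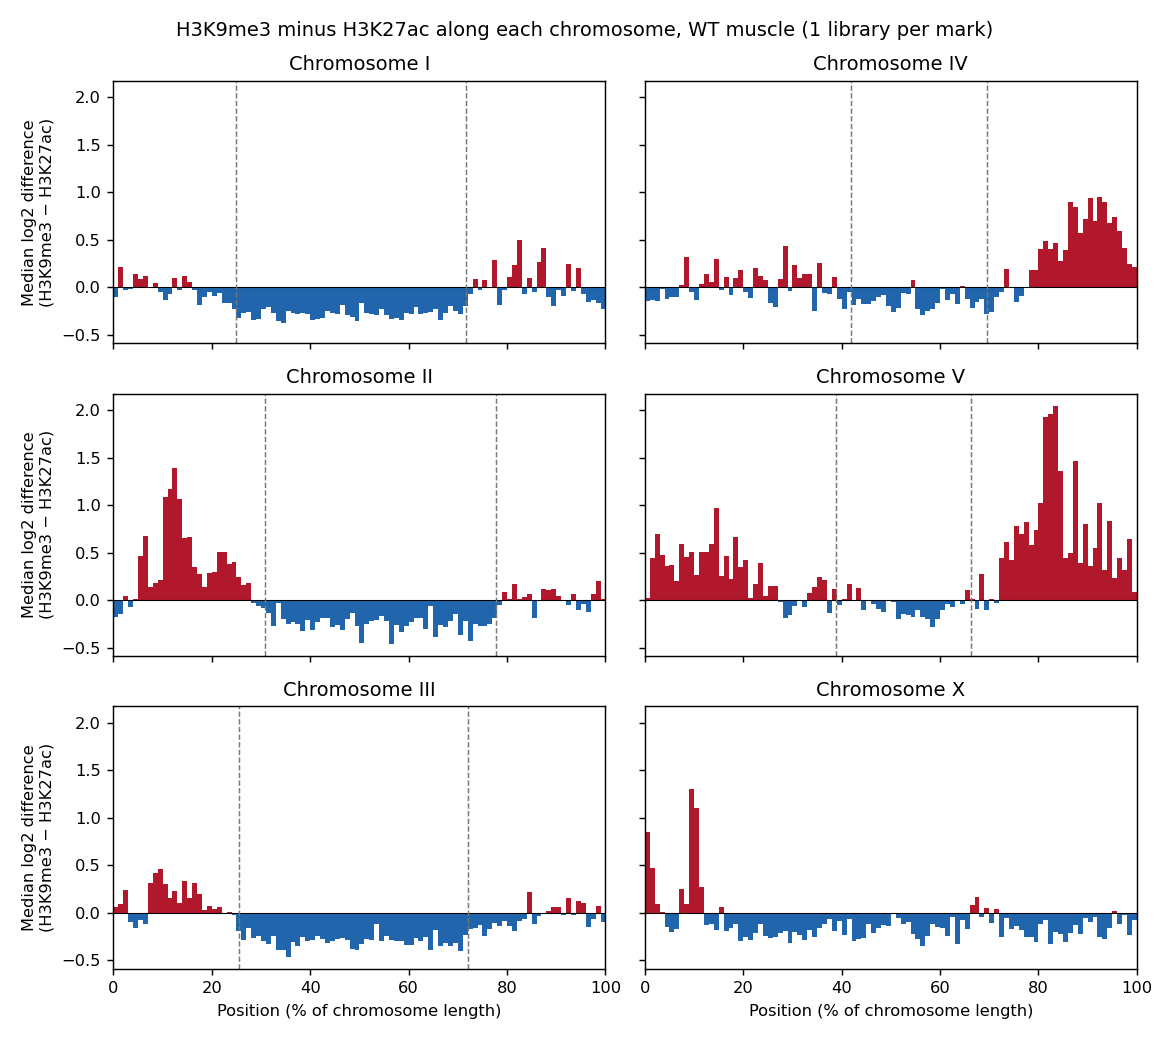
Median log2 difference (H3K9me3 minus H3K27ac, y axis) of the 1 kb windows in each of 100 bins along the 6 nuclear chromosomes (x axis, % of chromosome length), red above 0 and blue below, with dashed lines at the arm borders of the autosomes. The highest bin stood at 2.05 on chromosome V and inside an arm on each autosome, while the centres were mostly below 0.

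Read separately, neither mark was higher in arms than in centres. Median log2 scaled reads were lower in arms by 0.53 for WT H3K27ac, 0.39 for *met-2* H3K27ac, 0.19 for H3K9me2 and 0.12 for H3K9me3. The controls were lower in arms too, by 0.22 in WT and 0.32 in *met-2*, and their part in the result was not tested. In shares of nuclear reads, the autosome arms made up 51.0% of the windows and held 49.6% of H3K9me3 reads and 42.8% of H3K27ac reads. The centres, 31.3% of the windows, held 32.5% and 37.8%. Within each of 10 groups of windows ranked by WT control reads, arms stayed above centres, by 0.28 to 0.40.

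The arms were far from alike. In order, the medians were 0.56 in the right arm of V, 0.36 in the right arm of IV, 0.29 in the left arm of II, 0.24 in the left arm of V and 0.10 in the left arm of III. The other 5 arms lay between -0.064 and 0.025. All 10 arms exceeded the centre of their own chromosome, and 8 of 10 had a median above 0 (5 of 10 with *met-2* H3K27ac in place of WT). The 5 centres were all below 0, from -0.083 on V to -0.30 on III. The ranges from the 25th to the 75th percentile of windows overlapped between all neighbours in this order, and the right arms of I and II and the left arm of IV, at 0.011, 0.025 and 0.0084, had overlapping intervals of the median. The interval of the right arm of III (-0.080 to -0.046) overlapped those of the left arm of I (-0.049 to -0.016) and the centre of V (-0.099 to -0.070). Those of the centres of I and III overlapped too. H3K9me2 minus *met-2* H3K27ac did not share the whole of this order. Its median was 0.19 in the right arm of V, but -0.17 in both the right and the left arm of IV and -0.17 over all windows. The right arm of V had 53.2% of its windows on the H3K9me3 side and 4.45% on the H3K27ac side. Its median scaled reads were 165 for H3K9me3 and 103 for H3K27ac, where the genome-wide medians were 157 and 162. The arms next in order had less H3K9me3 than the genome-wide median, with 152 and 114 in the right arm of IV and 153 and 123 in the left arm of II.

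**Figure D2:**
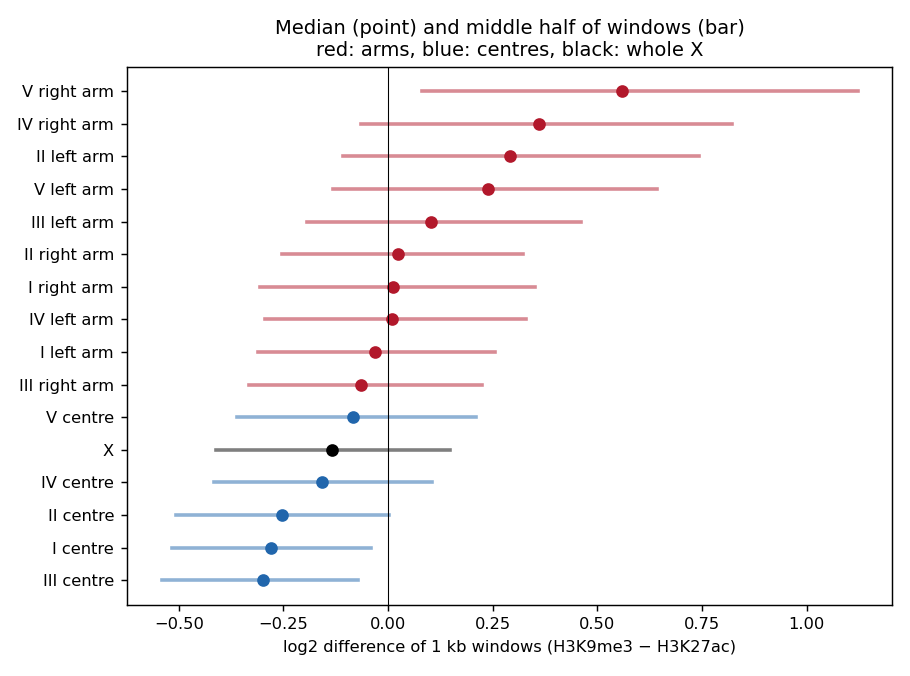
Median (points) and 25th to 75th percentile (bars) of the log2 difference of 1 kb windows (x axis) in the 10 autosome arms (red), the 5 autosome centres (blue) and the whole of chromosome X (black). Medians run from 0.56 in the right arm of V to -0.30 in the centre of III, with the median of every arm above that of every centre. The intervals of the median overlap between the lowest arm (right arm of III) and the highest centre (V).

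Chromosome X, which is divided here into no arms, resembled the autosome centres. Its median was -0.13, 0.11 below that of all autosome windows (-0.023). The H3K9me3 side took 8.86% of X windows and the H3K27ac side 18.2%. Its first 100 kb were the exception, with a median of 0.88, 72.3% of windows on the H3K9me3 side and 0% on the H3K27ac side. H3K9me3 itself was not raised there. In the first 1% of the length of X it stood at -0.539 relative to its genome-wide level on the log2 scale. H3K27ac stood at -1.416 and the WT control at -1.162. A further block stood at 9.5% of the length of X, where a bin of 1% of the chromosome had a median of 1.30.

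The high zones did not in general lie at the chromosome ends. Of the 12 terminal stretches of 100 kb, 6 had a median above that of their own chromosome. Besides the left end of X, medians were 0.29 at the right end of IV, 0.11 at the left end of V and 0.089 at the right end of V, and the lowest was -0.31 at the left end of II. The highest bins lay inside the arms, at 83.5% of the length of V (2.05), 12.5% of II (1.39), 92.5% of IV (0.95), 82.5% of I (0.50) and 9.5% of III (0.46). The lowest bin of every chromosome lay between 34.5% and 58.5% of its length.

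The length of uninterrupted runs separated the sides more clearly than their number of windows did. The 17104 windows of the H3K9me3 side formed 6987 runs with a mean length of 2.45 windows and a maximum of 153. The 15301 windows of the H3K27ac side formed 10551 runs with a mean of 1.45 and a maximum of 12. Single windows made up most runs on either side, 62.5% and 70.5%. Runs of at least 5 windows nevertheless held 45.6% of windows on the H3K9me3 side, against 5.16% on the H3K27ac side. Runs of at least 20 windows numbered 67 and 0, and 6 runs on the H3K9me3 side reached 100 windows. The number of runs of at least 20 windows depended on the setting. It was 44 and 0 with *met-2* H3K27ac, 19 and 0 at a threshold of 1, 146 and 3 with runs joined across a gap of 1 window, and 254 and 154 at a threshold of 0.

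A window on the H3K9me3 side was followed by another in 59.4% of cases, where 17.2% of all windows are on that side. For the H3K27ac side these values were 31.1% and 15.4%. Direct steps between sides were rare, since 1.83% of windows on the H3K9me3 side were followed by one on the H3K27ac side and 1.99% in the other order. In sums of 10 kb, runs of the H3K9me3 side had a mean length of 3.58 windows and a maximum of 75, and runs of the H3K27ac side 1.12 and 3. The mean lengths depended on the rule. Joining runs across a gap of 1 window raised them to 3.86 and 2.20 windows of 1 kb, and the longest to 184 and 25. With a threshold of 0 the order of the means turned, to 3.02 on the H3K9me3 side and 3.55 on the H3K27ac side, with longest runs of 333 and 52 windows.

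**Figure D3:**
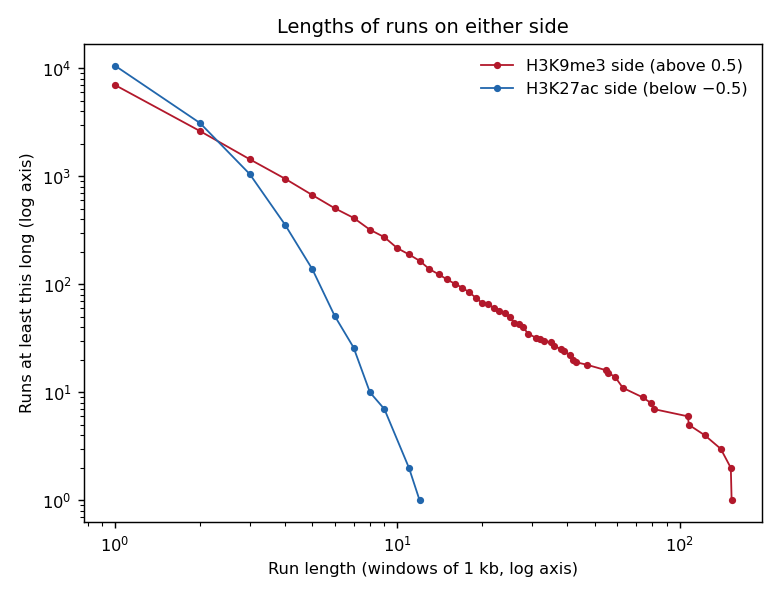
Number of runs (y axis, log scale) that are at least as long as a given number of 1 kb windows (x axis, log scale) on the H3K9me3 side (red) and the H3K27ac side (blue). The H3K27ac side has more runs of 1 window and none beyond 12, while the H3K9me3 side reaches 153.

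The 67 runs of at least 20 windows covered 2907 of the 17104 windows of the H3K9me3 side and were unevenly placed. The right arm of V held 31 of them with 1605 windows, which is 55.2% of the windows in such runs and 22.9% of that arm. The right arm of IV held 12, the left arm of II 11, the left arm of V 8 and chromosome X 5. The other 6 arms and all 5 centres held 0. Runs of at least 5 windows on the H3K27ac side showed the converse placement, with 2.64 per Mb in autosome centres (82 runs), 1.81 on X (32) and 0.473 in autosome arms (24).

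Over the pooled windows of the long runs, 55.2% of them in the right arm of V, H3K9me3 was raised and H3K27ac lowered. The runs were picked by the difference of these marks in WT, so the WT levels and counts of runs are a description. The *met-2* H3K27ac library followed the WT one closely, as given above. The median scaled reads were 216 for H3K9me3, 137% of the genome-wide median, and 77.1 for WT H3K27ac, 47.7%. *met-2* H3K27ac stood at 54.8% and was below its genome mean in 67 of 67 runs, as was the WT mark. H3K9me3 was above its genome mean in 56 of 67. H3K9me2 stood at 95.5%, and 20 of 67 runs were above its genome mean. The WT control stood at 84.7% and the *met-2* control at 95.2%. The pair without a shared library, H3K9me2 minus *met-2* H3K27ac, was above 0 in 63 of 67 runs and above 0.5 in 31. In the shorter runs of the H3K9me3 side the mark stood at 108% of its genome-wide median and H3K27ac at 56.9%.

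**Figure D4:**
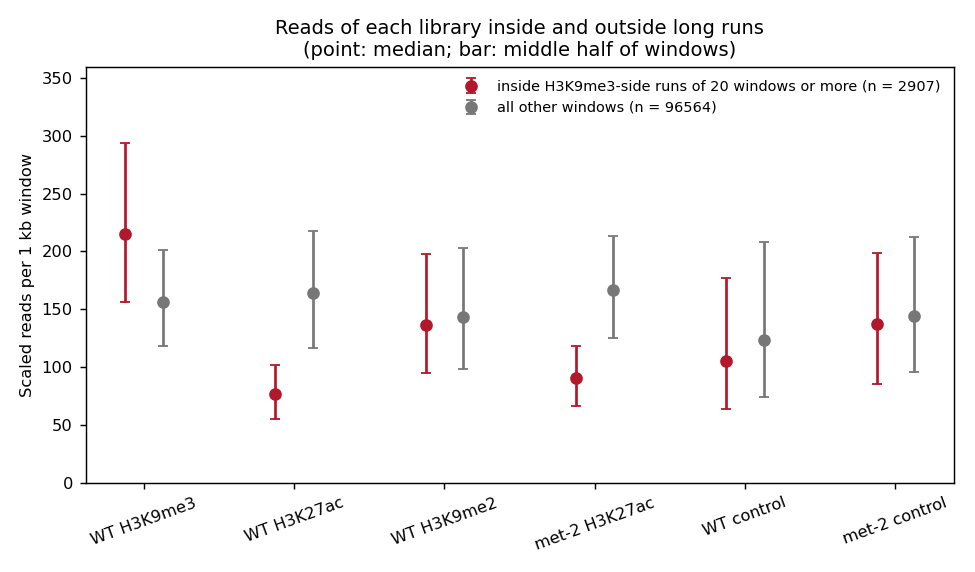
Scaled reads per 1 kb window (y axis) of the 6 libraries in the 2907 windows inside H3K9me3-side runs of at least 20 windows (red) and in the 96564 other windows (grey), as median with the 25th to 75th percentile. H3K9me3 is higher inside the runs (216 against 157), both H3K27ac libraries are lower, and the other 3 libraries overlap widely. The runs were picked by WT H3K9me3 minus WT H3K27ac, so the levels of these libraries are a description.

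On average the difference stayed high beyond the ends of the long runs. Flanks that reach into another long run were kept, as between the 2 longest, which end and start at V 17124009 and 17132010. The values therefore do not show how sharp the borders of whole zones are. In the 20 kb outside them the mean difference stayed between 0.77 and 0.99, apart from the closing window itself, where it was 0.29. In that closing window all 6 libraries had fewer reads than the genome mean, by 0.85 for H3K9me3 and 0.90 for the WT control on the log2 scale. Of the 134 closing windows, 22 averaged under 20 scaled reads over the 2 libraries and 8 held no read in any library, together 22.4%, where such windows made up 2.41% of the nuclear genome. With a pseudocount of 1 the longest run was 155 windows. Of the windows that closed H3K27ac-side runs of at least 5 windows, 1.45% were of this kind.

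The longest stretch was on chromosome V. In sums of 10 kb it ran over 75 windows, from V 16969012 to 17719004 (ce10), 750 kb with 347558 reads of H3K9me3 and 41368 of H3K27ac. Scaled reads per kb were 276 for H3K9me3 and 68.6 for H3K27ac, a difference of 2.01 (95% counting interval 1.99 to 2.02, 4.02-fold). Of its 745 windows of 1 kb with reads, 721 were on the H3K9me3 side and 0 on the H3K27ac side. Of all windows, 17.2% and 15.4% were on these sides. The stretch was picked by this difference, so the counts are a description. H3K9me2 had 163 scaled reads per kb there, *met-2* H3K27ac 76.6, the WT control 137 and the *met-2* control 142, so that H3K9me2 exceeded *met-2* H3K27ac by 1.09. It contains the 2 longest runs of 1 kb windows, V 17132010 to 17285008 (153 windows, difference 2.21) and V 16972012 to 17124009 (152 windows, 2.02).

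The next zones were smaller. On the left arm of II, 300 kb from 1669423 to 1969419 had 259 scaled reads per kb of H3K9me3 and 102 of H3K27ac, a difference of 1.34. It contains the run of 140 windows from 1822422 to 1962420 (1.51). A further 270 kb on the right arm of V, 18209000 to 18478997, had 211 and 73.2, a difference of 1.52. All 3 zones were picked for a high difference, so the sides of their 1 kb windows follow largely from that choice. None of these windows was on the H3K27ac side. H3K9me2 minus *met-2* H3K27ac was above 0 in all 3 zones, at 1.09, 0.33 and 0.70.

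The highest 10 kb window of each chromosome ranged from 1.76 on IV to 3.11 on II. The window on II, 1449425 to 1459424, rested on few reads, 680 of H3K9me3 and 32 of H3K27ac (interval 2.84 to 3.91). On V, 17419007 to 17429006 held 4769 and 353 reads (2.67, 2.54 to 2.85) and lies within the 750 kb stretch. On X, 1769810 to 1779808 held 7678 and 671 reads (2.44, 2.34 to 2.57), with 4571 scaled reads of H3K9me3 against 1364 in the WT control. IV 16238974 to 16248973 held 2560 and 357 reads (1.76). The only highest window in a centre was III 7439883 to 7449882, with 1770 and 230 reads (1.85). Scaled H3K9me3 reads were 1524 in the window on IV and 1054 in that on III, below the genome-wide 10 kb median of 1648. The window on II was below it too, and those on I, V and X were above it. Scaled H3K27ac reads on IV and III were 444 and 286, against a median of 1724.

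The highest window of chromosome I lies at 15059862 to 15069861, near the right end of the chromosome, where *C. elegans* carries its ribosomal DNA array. This window held 223529 reads of H3K9me3 and 25321 of H3K27ac (2.08), but scaled reads were 133068 for H3K9me3 and 267446 for the WT control. H3K9me3 exceeded H3K27ac there while lying below the antibody-free control. The same held for the highest window of II, with 405 scaled reads of H3K9me3 and 526 in the WT control. H3K9me2 minus *met-2* H3K27ac was above 0 in all 6 highest windows, from 0.67 on X to 2.98 on II.

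The H3K27ac side reached neither these lengths nor these differences. Its lowest 10 kb windows ranged from -0.69 on IV to -0.86 on III, a 1.62- to 1.82-fold excess of H3K27ac. The lowest was III 6749889 to 6759888, with 1533 reads of H3K9me3 and 1339 of H3K27ac (interval -0.97 to -0.76). I 10439905 to 10449904 held 2267 and 1896 reads (-0.80), II 7299371 to 7309370 held 2750 and 2262 (-0.78), and X 12859707 to 12869706 held 2668 and 2201 (-0.78). The other 2 lie in arms, IV 6369065 to 6379064 (-0.69) and the terminal 9 kb of V, 1 to 9168 (-0.73). H3K9me2 minus *met-2* H3K27ac was below 0 in 5 of these 6, and 0.066 in the window on X.

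The longest H3K27ac-side runs of 1 kb windows were I 3868966 to 3880965 (12 windows, difference -0.72), II 8569359 to 8580358 (11 windows, -0.75) and X 7779754 to 7788753 (9 windows, -0.67, tied in length with others). Over the run on I, scaled reads per kb were 135 for H3K9me3, 223 for H3K27ac, 183 for H3K9me2 and 184 in the WT control. In sums of 10 kb the longest were 30 kb each, I 4969955 to 4999954 (-0.53), I 6439942 to 6469941 (-0.55) and III 4899907 to 4929905 (-0.59). All but the run on X lie in chromosome centres. With *met-2* H3K27ac in place of the WT mark 5 of these 6 no longer passed -0.5, at -0.46 and -0.45 for the runs of 1 kb windows on I and II and -0.38, -0.35 and -0.38 for the runs of 10 kb windows.

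The layout was then followed from neighbouring windows to whole chromosomes. Blocks of 10 kb accounted for 61.0% of the variance of the difference among 1 kb windows, blocks of 100 kb for 41.0% and blocks of 1 Mb for 30.0%. The 16 regions (10 arms, 5 centres and X) accounted for 20.6% and chromosomes alone for 7.76%. The marks themselves were less ordered at long range. Blocks of 1 Mb accounted for 2.70% of the variance of log2 H3K9me3 and 15.5% of that of log2 H3K27ac.

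Correlations between windows a set distance apart are given as a description across 92792 to 99208 pairs of windows that share their libraries. For the difference, Pearson's r was 0.64 at 1 kb, 0.47 at 10 kb, 0.34 at 100 kb and 0.24 at 1000 kb. For H3K27ac alone it fell from 0.53 to 0.13 over this range, and for H3K9me3 alone from 0.40 to 0.019. H3K9me2 minus *met-2* H3K27ac fell from 0.28 to 0.035.

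**Figure D5:**
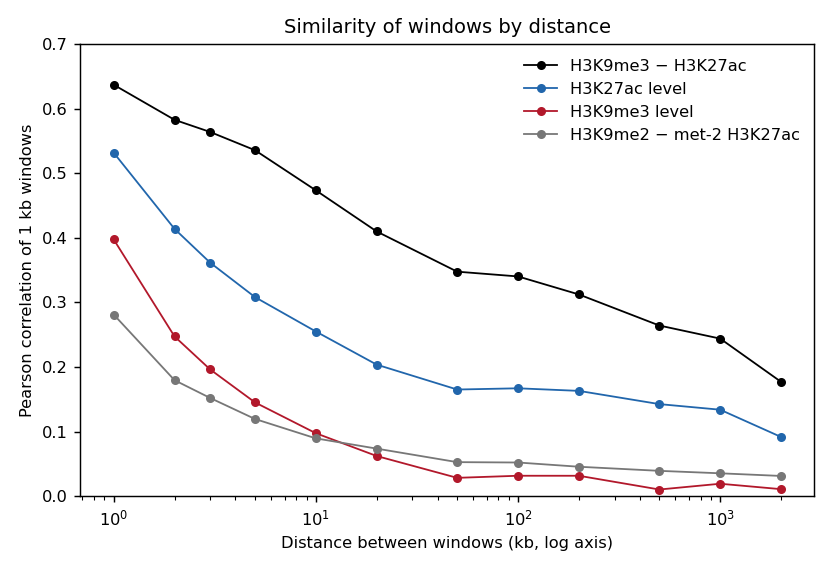
Pearson correlation of 1 kb windows (y axis) with windows a given distance away on the same chromosome (x axis, kb, log scale) for the difference (black), H3K27ac (blue), H3K9me3 (red) and H3K9me2 minus *met-2* H3K27ac (grey). The difference keeps a correlation of 0.24 at 1000 kb, where H3K9me3 alone is at 0.019.

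At fine scale the marks rose and fell together. Spearman's rho between H3K9me3 and H3K27ac was 0.62 over 99465 windows of 1 kb, 0.49 over 10009 windows of 10 kb, 0.48 over 1003 of 100 kb and 0.57 over 201 of 500 kb. The windows share their mappability and cutting by MNase, and rho of H3K9me3 with the WT control was 0.39 at 1 kb. H3K9me3 and H3K9me2 correlated at 0.53 over windows of 1 kb and 0.64 over windows of 500 kb. The 10% of windows highest for each mark had 4511 in common, 45.1% of the H3K9me3 list and 45.3% of the H3K27ac list, and 34.5% of those were also among the 10% highest in the WT control. Their median difference was -0.14. The difference and H3K9me2 minus *met-2* H3K27ac, which share no library, correlated at 0.24 over windows of 1 kb, 0.40 at 10 kb, 0.66 at 100 kb and 0.81 at 500 kb. The rank order of large blocks was thus more alike between these pairs than that of single windows. WT and *met-2* H3K27ac alone correlated at 0.89, 0.95, 0.98 and 0.99 over these sizes. How much of the likeness of the pairs came from H3K27ac was not tested.

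The difference was also read at 1000 local maxima of the *met-2* H3K27ac library, which it does not use. The WT difference had a median of -0.39 there. The H3K27ac side took 36.5% of these windows, against 15.4% of all, and the H3K9me3 side 2.3%, against 17.2%. All 6 libraries rose at the maxima over their genome means. On the log2 scale *met-2* H3K27ac itself rose by 1.29 and the *met-2* control by 1.16. WT H3K27ac rose by 1.35, H3K9me3 by 1.02 and the WT control by 0.96. The maxima are therefore not shown to be peaks of acetylation. The part of the controls in these values was not tested. By position, 476 of the 1000 maxima lay in autosome centres, 332 in autosome arms and 192 on X. Of all windows, 31.3% lay in centres, 51.0% in arms and 17.7% on X, so that X was near its share.

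The difference also moved with the control level. Its median was 0.19 in the 10% of windows with the fewest WT control reads and -0.14 in the 10% with the most, and the share on the H3K9me3 side went from 30.9% to 11.8%. The part of the control level in the layout was not tested beyond the distance between arms and centres given above, which was positive in 10 of 10 such groups.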

How the data were processed

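The authors deposited raw read counts per window of the ce10 assembly in 1 table, with 1 column for each of the 6 libraries. Per the methods and the labels, reads were trimmed with Trimmomatic 0.39, aligned with bowtie2, deduplicated with Bismark and counted with QuasR. The methods name windows of 500 bp, whereas the windows in the table are about 1 kb wide (930 are 1 bp narrower and 12 of another width). How reads with several matches in the genome were treated is not given in the sources used here, so counts over repeats are uncertain.

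The 14 mitochondrial windows and 808 windows without reads were left out. Columns were scaled to the average library total of 16977530 reads and log2(x + 8) was taken, as the study did. Sums of 10 windows were made before taking log2, with the same pseudocount. A run is a series of consecutive windows past 0.5 or -0.5, closed by a window short of it, a left-out window or a chromosome end. Arms and centres were assigned by the midpoint of a window and the study's borders, and X was kept whole because the border stated for it lies beyond the chromosome. Genome means and genome-wide medians are over nuclear windows with reads. Counting intervals (95%) take both libraries' reads in a window. Intervals of a median treat windows as independent.

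Groups came from the sample titles, with 1 library each, so no p-value was computed. Regions were named by rule: the highest and the lowest 10 kb window of each chromosome, averaging at least 200 scaled reads, and the 3 longest runs on either side in windows of 1 kb and of 10 kb. The comparison, measures and lists were chosen with earlier results of these data known. Lists of marker genes and base composition were not run, because the annotation at hand is of another build. The scripts were tested on simulated data. Tools were Python 3.11.15, numpy 2.4.6, pandas 2.3.3, scipy 1.17.1 and, for the TMM alternative only, edgeR 4.0.16 in R 4.3.3.

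The alternatives were a pseudocount of 1 (80 for sums of 10 kb), windows averaging at least 20 scaled reads, thresholds of 1 and 0, scaling by TMM, totals that leave out mitochondrial reads and the 1% of windows highest in the WT control, centring on the median, sums of 10 kb, the outer 25% of each chromosome as arms, runs joined over a gap of 1 window, and *met-2* H3K27ac in place of WT H3K27ac.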

Additional observations from a re-analysis of the deposited data

Results flagged for a closer look

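In the 14 mitochondrial windows, which the comparisons leave out, the H3K9me3 library held 1.98 times the share of reads that the WT control held, which is why they are listed here. The shares were 1.13% (321708 reads) for H3K9me3, 0.569% for the WT control, 0.590% for H3K9me2 and 1.27% for the *met-2* control, and 0.0787% (10754 reads) and 0.0781% for WT and *met-2* H3K27ac. H3K9me3 exceeded H3K27ac by 3.84 over these windows on the log2 scale (95% counting interval 3.81 to 3.87), and by 3.13 to 4.31 in single windows. Mitochondrial DNA is not packed on histones.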

How the results depend on the processing

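No paired analysis was possible because, among the libraries at hand, no mark had a second library in any genotype. The distance between arms and centres, X minus autosomes and the differences of the named regions kept their sign under each alternative recomputed for them. Counts of windows and run lengths have no sign to change. Medians of single arms did change sign. Of 10 arms, 8 had a median above 0, but 5 with *met-2* H3K27ac and 9 with the difference centred. The order of the sides turned for the 1 kb counts with *met-2* H3K27ac (13726 and 14107) and for mean run length at a threshold of 0. Of the 49 values recomputed for the comparisons, 28 stayed within 1.5 times the count or within the interval across windows or runs. A threshold of 1 left 5804 and 1163 windows of 1 kb on the H3K9me3 and H3K27ac sides and 480 and 0 sums of 10 kb, by construction. The 10 kb count on the H3K27ac side was 143 with the difference centred and 173 with *met-2* H3K27ac, against 444, and for the latter the cause was not tested. The distance between arms and centres was 0.40 with a pseudocount of 1, 0.36 in sums of 10 kb, 0.35 with the outer 25% as arms and 0.25 with *met-2* H3K27ac. X minus autosomes was -0.092 in sums of 10 kb. Mean run length on the H3K9me3 side was 2.14 windows at a threshold of 1, 3.02 at 0, 3.86 with gaps joined and 2.22 with *met-2* H3K27ac. On the H3K27ac side it was 1.06, 3.55, 2.20 and 1.35, and 1.49 with a pseudocount of 1 and 1.38 when centred. TMM scaling shifted the median difference by 0.0020. Of 24 named regions, 24 stayed past the threshold with a pseudocount of 1 and with TMM scaling, and 19 with *met-2* H3K27ac. The limits are 1 library per mark, an H3K27ac library less deep than the H3K9me3 library, and windows of few reads, whose difference the pseudocount draws towards 0.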

Other observations

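Other pairs of these libraries gave shorter runs above 0.5, and in part longer runs below -0.5. For H3K9me3 minus *met-2* H3K27ac, which keeps the H3K9me3 library, the longest runs were 140 windows above 0.5 and 12 below -0.5. These were near the 153 and 12 of the main difference. H3K9me2 minus *met-2* H3K27ac had an SD of 0.78 over windows of 1 kb, larger than the 0.57 of H3K9me3 minus H3K27ac, but its longest run above 0.5 was 29 windows against 153. Its longest run below -0.5 was 15 windows against 12, with mean lengths of 1.74 and 1.45. Direct neighbours correlated at 0.28 in that pair and at 0.64 in the main difference. Between the H3K27ac libraries, *met-2* minus WT, the SD was 0.31, 7.16% of windows were above 0.5 and 3.07% below -0.5, and the longest runs were 28 and 5 windows. Between the MNase controls, *met-2* minus WT, 37.9% of windows were above 0.5 and the longest runs were 15 windows above 0.5 and 16 below -0.5.

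At 1000 local maxima of H3K9me2 the median of the main difference was -0.15, with 12.3% of windows on the H3K9me3 side, against 17.2% of all, and 20% on the H3K27ac side, against 15.4%. H3K9me2 rose there by 2.37 over its genome mean on the log2 scale, H3K9me3 by 0.49, H3K27ac by 0.54 and the WT control by 0.97.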
